A study of Mus musculus with 7 samples.

Results

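Expression of the 3 small families of transcription regulators Id, Myc and Klf was followed in cultured mouse cells lacking the tumour suppressor p53, with and without Dnmt1. The genes were Id1, Id2, Id3, Id4, Myc, Mycn, Klf2 and Klf4. They were taken by gene symbol, and every probe set annotated to one of them was used. This gave 15 probe sets for 8 of the 12394 named genes on the array. Id2, Id4 and Mycn had 3 probe sets each, Klf4 had 2, and Id1, Id3, Myc and Klf2 had 1 each. Of the 15 probe sets, 14 passed the filter on dim signals, which asked for a signal above 45.6, the median of all signals, on at least 1 array. The third probe set of Id2 did not pass, with signals between 19.1 and 42.5.

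RNA came from mouse embryonic fibroblasts and was measured on 7 Affymetrix arrays with 1 array per group. The p53-Dnmt1-null cells (p53-/- Dnmt1-/-) were hybridised at 0 h (untreated), 24 h and 48 h of TSA, and 2 weeks after TSA had been removed. The p53-null cells (p53-/-) were hybridised at 0, 24 and 48 h of TSA. All cells therefore lacked p53, and no array of cells with p53 was included. Dnmt1 is the maintenance DNA methyltransferase, which copies methylation onto the new strand after replication. TSA, trichostatin A, inhibits histone deacetylases. The series concerns the part of DNA methylation in stable gene repression. The labels name no clone, passage or culture, and no source used here gives the dose of TSA or the length of exposure before its removal. No group held a replicate, so the p-values below rest on how the values varied between times and genotypes. That spread may hold real changes with time or genotype as well as technical variation. In the genotype comparison the 0, 24 and 48 h arrays of each genotype stood in for replicates. Loss of Dnmt1 therefore cannot be told apart from other differences between the 2 sets of cells. RNA was measured in bulk, so fewer cells of a type and less RNA per cell cannot be told apart.

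The 4 Id proteins have a helix-loop-helix domain but no DNA-binding region. They pair with E proteins and other basic helix-loop-helix factors and keep them from DNA, and their genes are classic targets of bone morphogenetic protein (BMP) signalling through Smad proteins. Myc and N-Myc, the product of Mycn, bind DNA as partners of Max and drive genes of growth, ribosome production and the cell cycle. Klf2 and Klf4 are zinc-finger factors. Klf2 is known for its role in endothelial cells and quiescent T cells, and Klf4 for its role in epithelial differentiation and in the reprogramming of fibroblasts to pluripotency together with Myc.

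The targeted gene, Dnmt1, gave 206.5, 74.0 and 109.5 in p53-Dnmt1-null cells at 0, 24 and 48 h and 123.2 after TSA removal, whereas p53-null cells had 695.6, 384.4 and 308.2. The cells labelled as fibroblasts differed by genotype in cell type markers. The summed signal of 12 fibroblast markers was 9290.5 to 16744.5 in p53-Dnmt1-null cells, against 30603.7 to 38067.3 in p53-null cells. By limma 9 of the 12 were lower in p53-Dnmt1-null cells, Dcn was higher (2.20 ± 0.39, SE), and Vim and Fn1 did not pass (-0.24 and -0.20). Of the 9, Postn passed the filter through p53-null arrays alone, so its direction was built in. The summed signal of 10 epithelial and mesothelial markers was 10893.0 to 19193.8 in p53-Dnmt1-null cells, against 152.1 to 423.0 in p53-null cells, where signals reached 298.5 for Krt19 and 58.3 for Krt8 but not above 5.4 for Wt1 and 3.3 for Krt14. Of 7 macrophage markers 4 did not pass the filter. The summed signal of all 7 was 202.8 to 388.0 in p53-Dnmt1-null cells, against 158.4 to 192.1 in p53-null cells. By limma 2 of the 3 tested were higher in p53-Dnmt1-null cells, Csf1r (1.38 ± 0.19, SE) and Cd68 (1.02 ± 0.29). Cd14 did not pass (0.03). These differences run with every genotype comparison below, and their part in the results was not tested. The p53-Dnmt1-null array at 24 h also stood apart in the control probe set for the 3' end of 18S ribosomal RNA. Its signal there was 2549.1, against 93.6 to 1292.1 on the 6 other arrays. This control also differed by genotype, with 688.1, 2549.1 and 1292.1 in p53-Dnmt1-null cells at 0, 24 and 48 h. The p53-null cells had 194.0, 337.5 and 228.7. The other 18S controls differed in the same direction at 0, 24 and 48 h. The part of this 18S difference in the genotype results was not tested.

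Signals were compared as log2(signal + 11.4), which understates the change of dim probe sets. Genotypes were compared by limma over the 6 arrays at 0, 24 and 48 h, adjusted over all 14012 probe sets tested, with an adjusted p under 0.05 as the threshold. Mycn and Myc were higher and Klf2 and Id3 were lower in p53-Dnmt1-null cells, while Id1, Id2, Id4 and Klf4 did not pass the test. For Myc this held on the TSA-treated arrays only, since the untreated arrays were level. Of the 14 member probe sets, 3 were called higher, where 17.6% of all probe sets were called higher. Called lower were 2 members, where 19.3% of all probe sets were called lower. All 3 Mycn probe sets, 2 of them among the 3 called higher, passed the filter through p53-Dnmt1-null arrays alone, so a difference in their favour was built in. The share of members called is close to the background of a comparison in which 5165 probe sets were called.

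The 3 genes with the largest differences are shown with the stretch around their transcription start, since the study contrasts cells with and without a DNA methyltransferase and CG dinucleotides are its substrate. The stretches come from RefSeq (GRCm38.p6), run from 250 bases before to 50 bases after the start, and are printed 5' to 3' on the strand of the gene with CG dinucleotides in capitals. Mycn lies at chr12:12941787-12942086 on the minus strand, Klf2 at chr8:72318812-72319111 on the plus strand and Id3 at chr4:136143572-136143871 on the plus strand.
Mycn: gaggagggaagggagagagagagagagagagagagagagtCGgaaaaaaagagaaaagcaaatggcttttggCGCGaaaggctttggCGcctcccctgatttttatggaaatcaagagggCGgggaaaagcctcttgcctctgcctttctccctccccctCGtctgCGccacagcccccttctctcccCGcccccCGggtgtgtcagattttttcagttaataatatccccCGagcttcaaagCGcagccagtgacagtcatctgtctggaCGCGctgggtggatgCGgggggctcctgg
Klf2: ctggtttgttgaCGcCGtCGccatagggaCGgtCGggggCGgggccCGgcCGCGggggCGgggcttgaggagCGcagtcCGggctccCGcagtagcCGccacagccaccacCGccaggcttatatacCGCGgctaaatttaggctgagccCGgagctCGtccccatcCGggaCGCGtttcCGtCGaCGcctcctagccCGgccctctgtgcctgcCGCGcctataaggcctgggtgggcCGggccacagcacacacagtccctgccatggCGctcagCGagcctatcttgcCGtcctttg
Id3: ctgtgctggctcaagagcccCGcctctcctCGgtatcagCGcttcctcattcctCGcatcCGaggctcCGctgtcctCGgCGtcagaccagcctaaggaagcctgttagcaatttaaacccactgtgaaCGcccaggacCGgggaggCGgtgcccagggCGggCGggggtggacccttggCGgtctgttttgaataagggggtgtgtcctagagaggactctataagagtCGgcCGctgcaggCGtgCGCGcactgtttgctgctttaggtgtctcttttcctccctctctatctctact
The Mycn stretch holds 14 CG dinucleotides, that of Klf2 32 and that of Id3 19, against a median of 7 over 32851 windows of the same length. A share of 63.7% of the windows held fewer than Mycn, 90.5% fewer than Klf2 and 71.9% fewer than Id3. The other members with a window were Id2 with 21, Id4 with 39 and Klf4 with 40. Id1 and Myc are named only. DNA methylation itself was not measured on these arrays.

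Mycn encodes N-Myc, a Myc protein best known from the embryo and from neuroblastoma. Its brightest probe set (1417155_at) gave 234.5, 211.4 and 149.5 in p53-Dnmt1-null cells at 0, 24 and 48 h of TSA, whereas p53-null cells had 8.6, 4.7 and 8.6. All 3 p53-Dnmt1-null arrays were far above all 3 p53-null arrays, whose signals lay under the offset of 11.4. The log2 difference was 3.47 ± 0.23 (SE, limma adjusted p = 1.51e-05), with 3.62, 3.79 and 3.01 at the single times. As plain signals the ratio was 27.3, 45.0 and 17.4, with a dim denominator each time. It was the one member probe set at least 2-fold higher at all 3 times, a rule met by 4.49% of all probe sets.

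The other probe sets of Mycn were dim. The second (1425922_a_at) gave 35.6, 33.4 and 48.2 in p53-Dnmt1-null cells at 0, 24 and 48 h, whereas p53-null cells had 12.4, 2.1 and 15.0. The groups did not overlap, and the log2 difference was 1.30 ± 0.30 (SE, limma adjusted p = 0.0102), or 0.61 with the offset at the median and 2.18 with an offset of 1. It passed the filter through 1 array, the p53-Dnmt1-null one at 48 h. It was not called without the 48 h arrays (adjusted p = 0.0591). The third (1425923_at) had 9.4, 49.7 and 7.3 in p53-Dnmt1-null cells, whereas p53-null cells had 15.1, 12.4 and 8.7. It passed the filter by its 24 h signal on the p53-Dnmt1-null array that stood apart in 18S, and its difference of 0.30 ± 0.41 did not pass the test (SE, limma adjusted p = 0.598). The Mycn probe sets thus disagree in size, and the third gave -0.35 and -0.10 at 0 h and 48 h.

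Myc, the founding member of its family, had 1 probe set. Its signals were 275.4, 504.2 and 375.2 in p53-Dnmt1-null cells at 0, 24 and 48 h, whereas p53-null cells had 278.8, 181.3 and 179.9. The untreated arrays were level, and the p53-Dnmt1-null arrays were above the p53-null arrays at 24 h and 48 h. The single log2 differences were -0.02 untreated, 1.42 at 24 h and 1.02 at 48 h. Averaged over the times the difference was 0.81 ± 0.27 (SE, limma adjusted p = 0.0419). That call was lost without the 24 h arrays (0.50, adjusted p = 0.168) and without the 48 h arrays (0.70, adjusted p = 0.186).

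Klf2 had 1 probe set and the reverse pattern of Mycn. Its signals were 64.2, 81.5 and 60.4 in p53-Dnmt1-null cells at 0, 24 and 48 h, whereas p53-null cells had 399.5, 281.1 and 464.0. Every p53-Dnmt1-null array was below every p53-null array. The log2 difference was -2.27 ± 0.23 (SE, limma adjusted p = 0.000141). As plain signals Klf2 was 6.22-fold, 3.45-fold and 7.68-fold lower. It was the one member at least 2-fold lower at all 3 times, a rule met by 6.01% of all probe sets. Of 8 endothelial markers 5 did not pass the filter, among them Pecam1 and Cdh5. The summed signal of all 8 was 161.2 to 239.7 in p53-Dnmt1-null cells, lowest after TSA removal, against 168.9 to 209.9 in p53-null cells. Flt1 was the one endothelial marker called, higher in p53-Dnmt1-null cells (1.09 ± 0.25, SE). It passed the filter through p53-Dnmt1-null arrays alone, so a difference in that direction was built in.

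Klf4 had 2 probe sets. The brighter (1417394_at) had 253.3, 237.4 and 247.5 in p53-Dnmt1-null cells at 0, 24 and 48 h, whereas p53-null cells had 263.9, 178.6 and 302.3. The values of the genotypes overlapped, with a log2 difference of 0.02 ± 0.19 (SE, limma adjusted p = 0.950). The dimmer (1417395_at) had 176.8, 135.9 and 137.6 in p53-Dnmt1-null cells, whereas p53-null cells had 244.5, 146.9 and 224.3. It was lower in p53-Dnmt1-null cells at each matched time, but its difference of -0.40 ± 0.19 did not pass the test (SE, limma adjusted p = 0.129).

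Id3 was the one Id gene that passed the test. Its signals were 709.0, 1230.0 and 924.9 in p53-Dnmt1-null cells at 0, 24 and 48 h, whereas p53-null cells had 1450.7, 2259.9 and 1966.3. The highest p53-Dnmt1-null value lay below the lowest p53-null value. The log2 difference was -0.99 ± 0.12 (SE, limma adjusted p = 0.000314), and it was -1.02, -0.87 and -1.08 at the single times. Klf2 and Id3 were the 2 member probe sets with every p53-Dnmt1-null array below every p53-null array, as were 22.5% of all probe sets. Above were the first 2 Mycn probe sets, as were 21.2% of all probe sets.

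Id1 was bright and even across all arrays. Its signals were 912.1, 1145.1 and 977.5 in p53-Dnmt1-null cells at 0, 24 and 48 h, whereas p53-null cells had 791.4, 1060.8 and 916.5. The 2 genotypes overlapped, with a log2 difference of 0.13 ± 0.13 (SE, limma adjusted p = 0.439). Each genotype had its highest Id1 signal at 24 h.

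Id2 had 2 tested probe sets with like profiles. The first (1422537_a_at) had 198.3, 439.4 and 258.8 in p53-Dnmt1-null cells at 0, 24 and 48 h, whereas p53-null cells had 179.0, 253.5 and 392.9. The second (1435176_a_at) had 129.0, 311.2 and 197.2 in p53-Dnmt1-null cells, whereas p53-null cells had 133.1, 199.3 and 258.3. In both probe sets the p53-Dnmt1-null cells peaked at 24 h and the p53-null cells at 48 h. The genotype differences were 0.11 ± 0.25 and 0.07 ± 0.22 (SE, limma adjusted p = 0.762 and 0.833).

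Id4 had 3 tested probe sets, with signals of 140.2 or less on every array. The first (1423259_at) had 132.4, 94.3 and 104.8 in p53-Dnmt1-null cells at 0, 24 and 48 h, whereas p53-null cells had 72.5, 129.0 and 128.9. The second (1423260_at) had 135.4, 82.0 and 140.2 in p53-Dnmt1-null cells, whereas p53-null cells had 72.1, 134.9 and 105.5. The third (1450928_at) had 42.2, 36.8 and 45.5 in p53-Dnmt1-null cells, whereas p53-null cells had 22.8, 63.2 and 72.0. All 3 were higher in p53-Dnmt1-null cells before TSA and lower at 24 h. The genotype differences averaged over the times lay between -0.18 and 0.18, none past the test (limma adjusted p from 0.633 to 0.932).

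**Figure D1:**
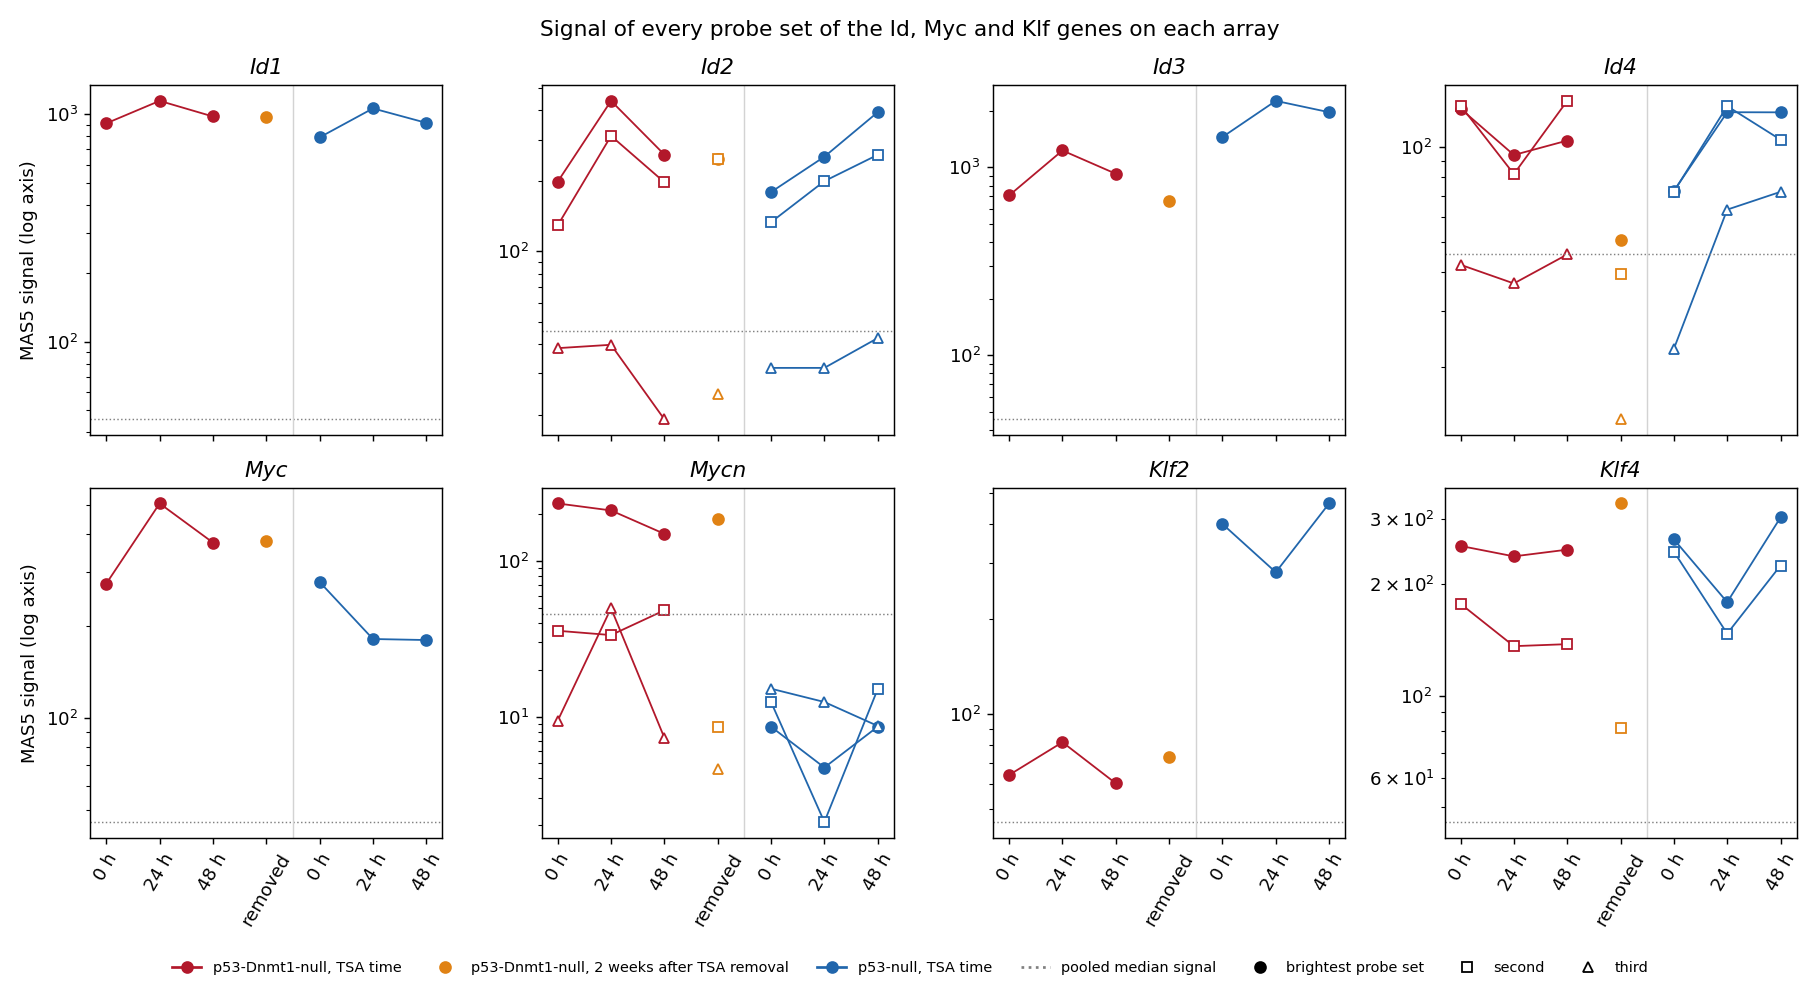
MAS5 signal (log axis) of all 15 probe sets of the 8 genes on each array, by genotype and time of TSA, with the array 2 weeks after removal in orange and the pooled median dotted. Mycn (1417155_at) lies at 149.5 to 234.5 in p53-Dnmt1-null cells at 0 to 48 h against 4.7 to 8.6 in p53-null cells, Klf2 lies at 60.4 to 81.5 against 281.1 to 464.0, and Id1 overlaps. Each point is 1 array.

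**Figure D2:**
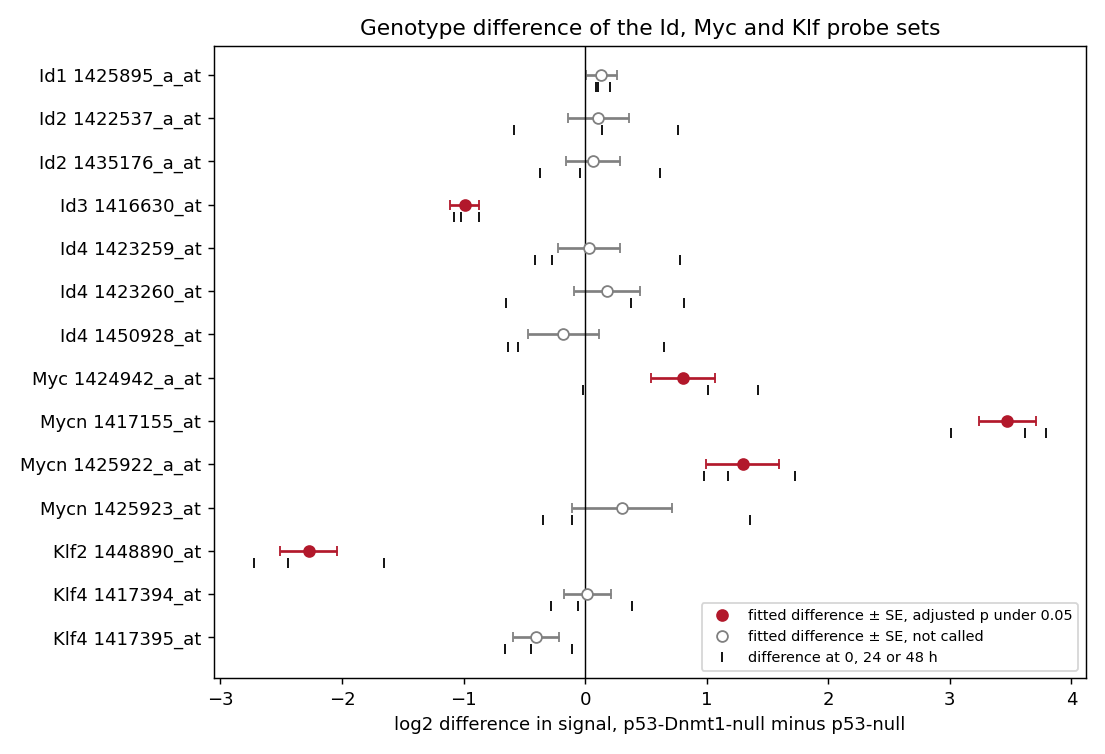
Log2 difference in signal, p53-Dnmt1-null minus p53-null, of the 14 tested probe sets, with the limma estimate, its standard error and the differences at the single times. Mycn (3.47) and Klf2 (-2.27) have the largest differences, and those of Id1, Id2, Id4 and Klf4 do not pass the test.

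TSA was compared with no treatment in 3 ways: averaged over genotypes, within each genotype, and as a difference between genotypes. None of the 14 member probe sets passed limma in any of them. Averaged over genotypes, 0.0143% of all probe sets were called higher (2 probe sets, of Nts and Igfbp2) and 0% lower, with 2054 at an unadjusted p under 0.05. Within p53-Dnmt1-null cells 0% were called in either direction (1136 at an unadjusted p under 0.05), and within p53-null cells 0% (1206 at an unadjusted p under 0.05). The values are given as a description. For TSA averaged over genotypes, the count over all probe sets was 242 without the 24 h arrays and 131 without the 48 h arrays, with no member among them.

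In the comparison averaged over genotypes, Id2 and Id3 had the values furthest above 0 for their error. The first probe set of Id2 gave a log2 difference of 0.76 ± 0.27 with TSA (SE, limma adjusted p = 0.2504), and the second 0.80 ± 0.24 (adjusted p = 0.205). Every treated array lay above the untreated array of its genotype. Id3 gave 0.56 ± 0.16 (SE, limma adjusted p = 0.201), with 0.79 at 24 h and 0.38 at 48 h in p53-Dnmt1-null cells and 0.64 at 24 h and 0.44 at 48 h in p53-null cells. Both genotypes had the higher Id3 value at 24 h. Id1 gave 0.26 ± 0.16 (SE, limma adjusted p = 0.501), and its 4 treated arrays also lay above their untreated ones. These 4 of 14 member probe sets stand beside 17.0% of all probe sets above the untreated array on all 4 treated arrays, and the treated arrays of a genotype share that untreated array.

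The first Id4 probe set and Myc had TSA differences of opposite sign in the genotypes. For Id4 these were -0.44 at 24 h and -0.31 at 48 h in p53-Dnmt1-null cells, against 0.74 at 24 h and 0.74 at 48 h in p53-null cells. Its difference between genotypes was -1.12 ± 0.41 (SE, limma adjusted p = 0.995). The third probe set gave -1.24 ± 0.49 and the second -0.95 ± 0.52 (limma adjusted p = 0.995 for both), but in p53-Dnmt1-null cells at 48 h both lay slightly above 0 (0.0862 and 0.0464). Myc gave 0.85 at 24 h and 0.43 at 48 h in p53-Dnmt1-null cells, against -0.59 at 24 h and -0.60 at 48 h in p53-null cells. The difference for Myc was 1.23 ± 0.45 (SE, limma adjusted p = 0.995). Neither gene passed after adjustment, and 0% of all probe sets did in either direction (480 at an unadjusted p under 0.05).

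Size gave few members. The third Id4 probe set was at least 2-fold higher with TSA at both times in p53-null cells, with log2 differences of 1.13 and 1.29, and 1.51% of all probe sets met that rule. It passed the filter through the treated p53-null arrays alone, and the rule was not met with the offset at the median. No member was at least 2-fold lower there (1.03% of all probe sets). In p53-Dnmt1-null cells no member was at least 2-fold higher at both times (1.71% of all probe sets) or lower (0.378%). Mycn (1417155_at) gave -0.38 ± 0.34 in p53-Dnmt1-null cells and -0.16 ± 0.34 in p53-null cells, where it stayed under 9 in signal. Klf2 gave 0.11 ± 0.37 in p53-Dnmt1-null cells and -0.14 ± 0.37 in p53-null cells (SE). Neither gene thus approached its level in the other genotype under TSA.

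**Figure D3:**
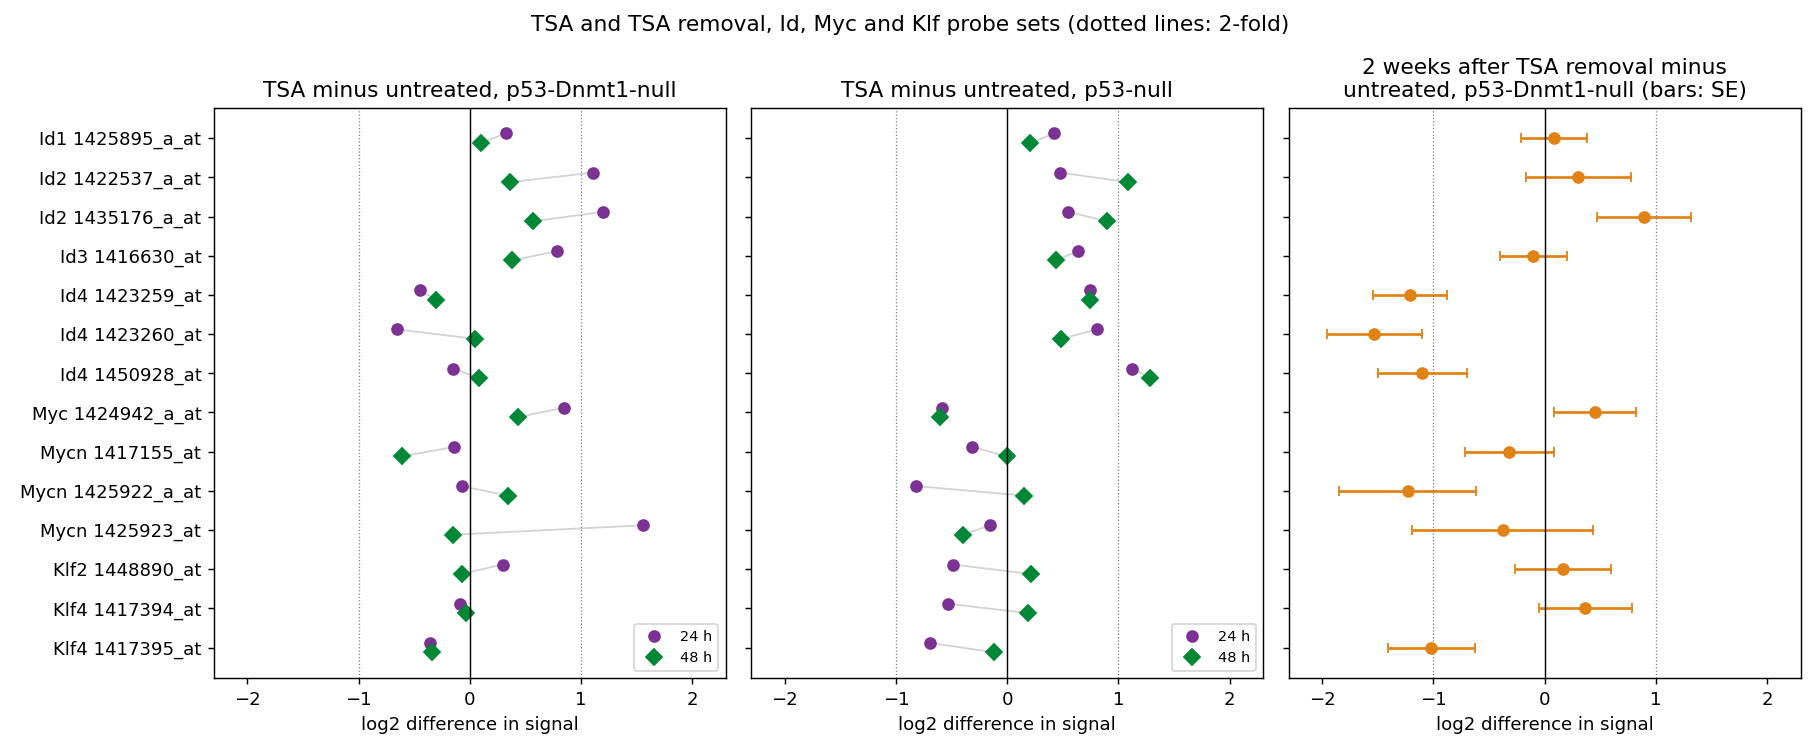
Log2 difference in signal, TSA minus untreated, at 24 h and 48 h in each genotype for the 14 tested probe sets. Id2 and Id3 lie above 0 on all 4 treated arrays, and Id4 (1423259_at) and Myc lie on opposite sides of 0 in the genotypes. The right panel gives 2 weeks after removal minus untreated with standard errors, and all 3 Id4 probe sets lie below -1 there.

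The p53-Dnmt1-null array taken 2 weeks after TSA removal was compared with the untreated one. This is 1 array against 1, with the spread taken from the 24 h and 48 h pairs of both genotypes. Id4 was lowest here of all 7 arrays. Its first probe set had a signal of 50.6 after removal, against 132.4 untreated, the second 39.4 against 135.4, and the third 13.6 against 42.2. The log2 differences were -1.21 ± 0.33, -1.53 ± 0.43 and -1.10 ± 0.40 (SE, limma adjusted p = 0.140, 0.141 and 0.205), so all 3 had the same direction and none passed. The same array gave 93.6 for the 3' end of 18S ribosomal RNA, against 688.1 untreated. Of the cell type markers, 10 of 10 epithelial and mesothelial ones (median -0.34) and 10 of 12 fibroblast ones (median -0.59) lay below 0 there, and their part in the Id4 values was not tested.

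Besides Id4, the second Mycn probe set, at 8.6 after removal against 35.6 untreated, and the dimmer Klf4 probe set, at 81.5 against 176.8, were at least 2-fold lower. These 5 member probe sets stand beside 8.46% of all probe sets at least 2-fold lower, and no member was at least 2-fold higher (6.74% of all). Of the 5, 3 are probe sets of Id4, and the count was 1 with the offset at the median and 3 with quantile normalization. Both genes have a brighter probe set that did not share the change. For Mycn it had 186.0 after removal against 234.5 untreated, and for Klf4 329.8 against 253.3. Id1 (968.4 against 912.1), Id3 (659.8 against 709.0) and Klf2 (73.4 against 64.2) were close to their untreated values. Myc had 380.9 after removal against 275.4 untreated, and the Id2 probe sets had 247.3 against 198.3 and 249.1 against 129.0. By limma 0.0143% of all probe sets were called higher (2, both of Malat1) and 0% lower, with 2630 at an unadjusted p under 0.05, and no member was among them.

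Genes around these regulators were grouped by role, each gene taken at its brightest probe set. The counts are limma calls in the genotype comparison over all probe sets, where 17.6% of all were higher and 19.3% lower, and the median over all of them was 0.02. The lists were chosen with earlier results of these data known. All 3 E proteins, the partners that Id proteins hold from DNA, had values below 0. Tcf4 (-2.01 ± 0.18, SE) and Tcf3 (-0.73 ± 0.17) were lower, and Tcf12 did not pass (-0.49, limma adjusted p = 0.0773). Tcf4 had 75.9, 92.1 and 111.2 in p53-Dnmt1-null cells at 0, 24 and 48 h, whereas p53-null cells had 307.3, 453.2 and 475.4.

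Of 18 tested BMP pathway genes, limma called 9 lower and 1 higher, and the median was -0.77. The BMP antagonist Grem1 (-3.42 ± 0.27), the pseudoreceptor Bambi (-2.26 ± 0.24) and the activin and BMP antagonist Fst (-2.09 ± 0.23) were the furthest down. Also lower were Msx1 (-2.00 ± 0.29), Msx2 (-1.96 ± 0.30), the ligand Bmp4 (-1.13 ± 0.18), Bmp1 (-0.97 ± 0.18), the receptor Acvr1 (-0.97 ± 0.19) and Smad1 (-0.59 ± 0.18). The ligand Bmp6 was higher (1.72 ± 0.28). Grem1 had 28.3, 69.3 and 42.7 in p53-Dnmt1-null cells, whereas p53-null cells had 384.9, 521.3 and 988.8. Of these calls, 3 of the 9 lower genes, Bambi, Msx1 and Msx2, passed the filter through p53-null arrays alone. Bmp6 passed it through p53-Dnmt1-null arrays alone. The direction of these calls was therefore built in. The inhibitors Chrd (0.32), Smad7 (0.27) and Smad6 (-0.20), named after their values were seen, did not pass the test.

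Among 30 tested genes known as Myc targets, 20 were higher and 1 was lower, with a median of 0.74. Nop56 (2.17 ± 0.33) and Nolc1 (1.97 ± 0.20), both of the nucleolus, and Rcl1 (1.86 ± 0.21), which acts in ribosomal RNA processing, rose most. Ccnd2, a D-type cyclin, was lower (-1.08 ± 0.16). Without the 48 h arrays 12 were higher. Nop56 had 1145.9, 701.3 and 738.9 in p53-Dnmt1-null cells, whereas p53-null cells had 449.2, 185.6 and 63.1. Of 11 proliferation markers 6 were higher and none lower, with Mcm5 (1.79 ± 0.31), Mcm2 (1.70 ± 0.29) and Tk1 (1.45 ± 0.34) in front, and 3 were higher without the 48 h arrays. Their summed signal was 11973.7, 4238.9 and 8553.0 in p53-Dnmt1-null cells at 0, 24 and 48 h, whereas p53-null cells had 7538.0, 4121.0 and 2759.6. The part of proliferation in the Myc target values was not tested.

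Partners and rivals of Myc were called in both directions. Of 10 tested genes of the Myc network, Zbtb17, a partner of Myc in repression, was higher (0.69 ± 0.18) and Mxd4, a rival of Myc for Max, was lower (-1.17 ± 0.17). Max itself did not pass (-0.26, limma adjusted p = 0.315). Among 11 other Klf and Sp genes Klf3 was higher (0.59 ± 0.18), Klf6 (-1.16 ± 0.18) and Klf7 (-0.94 ± 0.18) were lower, and 8 did not pass, shares no larger than those over all probe sets.

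Immediate early genes, to which Myc and Klf4 are often counted, gave 6 higher and 1 lower of 19 tested, with a median of 0.16. Ier3 (2.12 ± 0.17), Atf3 (2.00 ± 0.22) and Junb (1.09 ± 0.21) were the furthest up, and the nuclear receptor Nr4a1 was lower (-0.78 ± 0.25). Atf3 passed the filter through p53-Dnmt1-null arrays alone, so its direction was built in. Of 7 inhibitors of cyclin-dependent kinases, which Id, Myc and Klf4 proteins are known to act on, 4 were lower and none higher, with a median of -0.72. The furthest were Cdkn1c, an imprinted gene (-3.12 ± 0.46), Cdkn2a (-1.15 ± 0.16) and Cdkn2b (-0.84 ± 0.21). Cdkn1a, a p53 target in cells that have p53, did not pass (-0.25, limma adjusted p = 0.622).

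**Figure D4:**
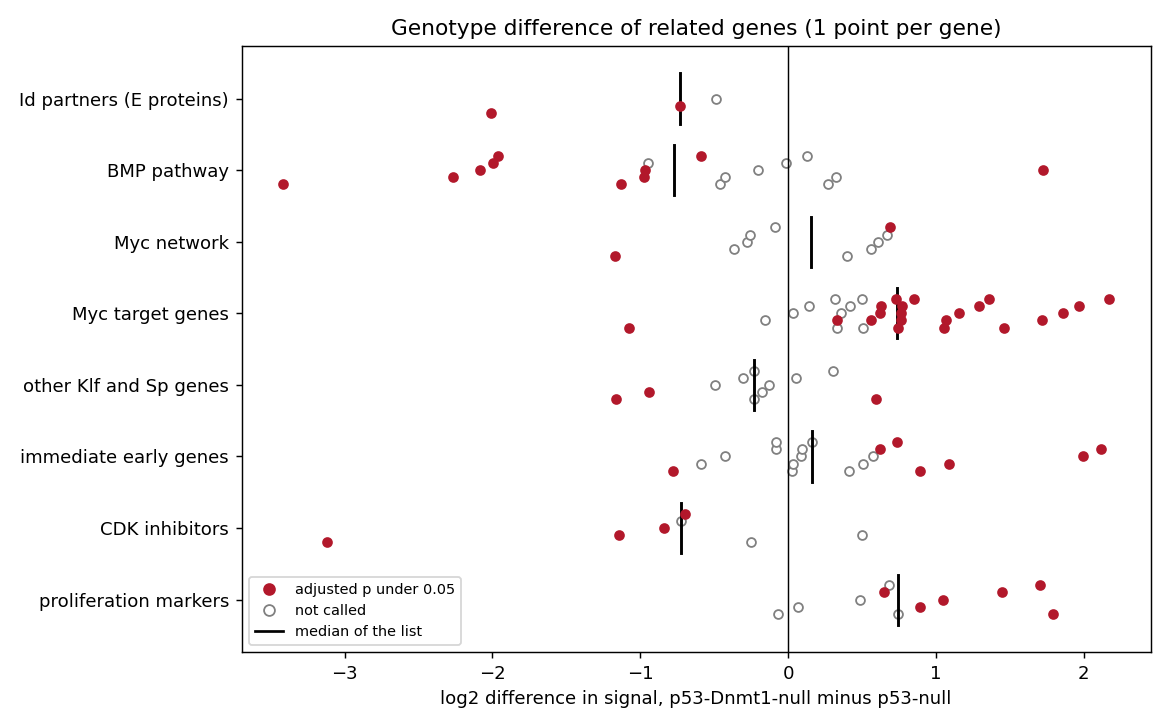
Log2 difference in signal, p53-Dnmt1-null minus p53-null, of genes in 8 lists, with 1 point per gene, filled where limma's adjusted p is under 0.05, and a bar at the list's median. The 30 Myc targets have a median of 0.74 and the 18 BMP pathway genes one of -0.77.

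With TSA averaged over genotypes, no gene of these lists was called. The Myc targets had a median of -0.55, with 29 of 30 below 0, and the proliferation markers one of -1.09, with 11 of 11 below 0, where the median over all probe sets was 0.01. The BMP genes had a median of 0.41, as did the 4 Id genes. In the genotype comparison their medians were apart, at -0.77 for the BMP genes and 0.07 for the Id genes. A link between these lists was not tested.

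Short sequence matches in the promoter stretches were counted on both strands. The motif TTTGGCGC or TTTCGCGC, of the kind bound by E2F factors, occurred 3 times in the Mycn stretch, at 183 to 161 bases before the start with the first 2 matches overlapping, and in none of the other 5 members with a window. It was present in 0.813% of all windows. The MEF2 consensus occurred once in the Klf2 stretch, 118 to 109 bases before the start, and in 0.557% of all windows. The GC box GGGCGG, a binding site of Sp and Klf factors, was found in all 6 members with a window and in 35.7% of all windows, with 5 matches in Id4, 4 in Klf4, 2 each in Mycn, Klf2 and Id3, and 1 in Id2. The matches in Id3 overlap, as do the first 2 in Klf4. This motif holds a CG, and all 6 stretches held more CG dinucleotides than the median window, so the share over all windows is an unlike background. CCAAT occurred 3 times in Id2 and 2 times in Id4 (37.4% of windows), and CACGTG, the E-box that Myc binds with Max, once in Klf4 (7.15%). These are matches of letters only.

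Genes with the most similar profile to each member's brightest probe set were ranked by Pearson's r of log2 values over the 7 arrays, among 8886 candidate probe sets. The arrays share their scaling, and r is given as a description. Frmd6 (0.999), Nnt (0.997) and Col5a3 (0.995) were closest to Id3. For Klf2 these were Tsc22d3 (0.999), Dcaf11 (0.996) and Snx9 (0.995), and for Mycn Atp1b1 (0.996), Wwc1 (0.995) and Rbm38 (0.994). Myc was nearest to Ahnak (0.962), Mtmr14 (0.953) and Wdr77 (0.952). The closest to Id4 were Mr1 (0.963), Bmerb1 (0.960) and Ulk1 (0.954), and to Id1 Cend1 (0.971), Guca1a (0.967) and Helz2 (0.957). Klf4 had Tsks (0.932), Spag7 (0.919) and Trib3 (0.914), and Id2 had Atp6v0b (0.904), Atp1b2 (0.884) and Entpd2 (0.879). Id3, Klf2 and Mycn had the closest neighbours, and Id2 the least close. Those of Id3, Klf2 and Mycn are also the brightest probe sets whose genotypes did not overlap at 0, 24 and 48 h. Of all probe sets 21.2% split that way upward and 22.5% downward, so close neighbours were many to choose from. For Tsc22d3 the signals were 39.6, 50.1 and 32.4 in p53-Dnmt1-null cells at 0, 24 and 48 h and 49.0 after removal, whereas p53-null cells had 296.6, 217.0 and 368.9.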

How the data were processed

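The deposited values were linear signal intensities of 22690 probe sets on 7 arrays. The authors made them with MAS5, per the submitters' processing notes, and no source used here gives its version or scaling target. The RNA was total RNA from TriZol, per the labels' protocols. Probe sets were named through the array's annotation: 20393 had 1 symbol, 691 had several and were not named, and symbols were updated to RefSeq (GRCm38.p6).

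Signals were analysed as log2(signal + 11.4), the offset being the pooled 25th percentile. Probe sets above the pooled median of 45.6 on at least 1 array were tested (14012 probe sets, with 64 controls left out). The test was limma 3.58.1 (R 4.3.3) with a trend on intensity, adjusted after Benjamini and Hochberg over all probe sets, threshold 0.05. It was also run on simulated data with independent noise and a constant shift between genotypes. Such data cannot check the use of single arrays without replicates. Genotype was tested with time as a factor (2 residual degrees of freedom), TSA averaged over genotypes with genotype as a factor (3), and the other comparisons over 7 arrays with 24 h and 48 h pooled (2), so a lone array is assumed to vary like those pairs. The number of arrays limits the precision. Alternatives changed the offset, the filter, the trend, the normalization, the probe sets per gene, and the times included.

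Named were all member probe sets, the 3 nearest genes by correlation, and up to 3 called genes in each direction of each list. Tcf12, Max, Cdkn1a, Chrd, Smad6, Smad7, the further BMP genes called lower and some cell type markers were named after their values were seen. The members and lists were chosen with earlier results of these data known.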

Additional observations from a re-analysis of the deposited data

Results flagged for a closer look

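For 2 probe sets the TSA difference had opposite signs in the genotypes at both times. The first Id4 probe set (1423259_at) was below its untreated value at 24 h and 48 h in p53-Dnmt1-null cells and above it in p53-null cells, a log2 difference between the genotypes of -1.12 ± 0.41 (SE, limma adjusted p = 0.995). Myc went the other way, with a difference of 1.23 ± 0.45 (SE, limma adjusted p = 0.995). The other Id4 probe sets did not share this at 48 h in p53-Dnmt1-null cells, where they lay at 0.0862 and 0.0464. The difference between genotypes was tested and did not pass for either, and each rests on single arrays.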

How the results depend on the processing

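Mycn (1417155_at), Klf2 and Id3 were called with the same direction under all 10 settings, with genotype differences of 2.19 to 4.60, -2.58 to -1.88 and -1.05 to -0.95. Myc was called under 6 of 10, and lost its call with no filter (adjusted p = 0.0990), with no trend (0.0741), without the 24 h arrays (0.50, adjusted p = 0.168) and without the 48 h arrays (0.70, 0.186). Mycn (1425922_a_at) lost it without the 48 h arrays (1.36, 0.0591) and ranged between 0.61 and 2.18. Without the 48 h arrays 3 member probe sets were called in place of 5, and 2901 of all probe sets in place of 5165. With an offset of 1, 2 members were at least 2-fold higher at all times in place of 1. With the offset at the median, 0 members were at least 2-fold higher with TSA in p53-null cells in place of 1, and 1 at least 2-fold lower after removal in place of 5, or 3 with quantile normalization. The cause was not tested. Signs turned only in values that had not been called. Among values with a test, without the 24 h arrays these were the genotype differences of Id2 (-0.22 and -0.21), Id4 (1450928_at, 0.0483), Mycn (1425923_at, -0.23) and Klf4 (1417394_at, -0.17), and the TSA differences of Myc (-0.0852), Mycn (1425922_a_at 0.25, 1425923_at -0.28), Klf2 (0.068) and Klf4 (1417394_at, 0.0782). Id4 (1450928_at) gave 0.00905 in the genotype difference without the 48 h arrays. With quantile normalization Klf2 gave 0.00432 for TSA and Id3 -0.037 for the difference between genotypes.

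Chosen after seeing the data, the list counts were repeated under the same settings. Between 12 and 22 Myc targets and 3 and 9 proliferation markers were higher, and 8 to 9 BMP genes were lower. Of the immediate early genes 4 to 7 were higher and 0 to 2 were lower. Between 3 and 5 inhibitors of cyclin-dependent kinases were lower. With TSA averaged over genotypes 2 of all probe sets were called, against 242 without the 24 h arrays and 131 without the 48 h arrays, with 0 members among them. After removal the count was 2, against 12 with an offset of 1, 7 with the offset at the median and 0 with no filter. Without the arrays of a time, the comparisons within a genotype left no residual degrees of freedom and gave values with no test. Of 14 such values each, the sign was opposite without the 24 h arrays in 4 for TSA in p53-Dnmt1-null cells, 3 in p53-null cells and 5 for the difference between genotypes, and without the 48 h arrays in 1, 0 and 2. No paired analysis by replicate number was possible because each group held 1 array, and the genotype test already takes time as a factor. Single arrays limit every value, and dim probe sets, under the offset in p53-null cells for Mycn, set no exact fold.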
